A study of Mus musculus with 764 samples.

Results

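Dividing cells among the IL-10 reporter CD4+ T cells of the spleen were described here across all genes. A cell was called cycling when it held at least 10 reads of both Mki67 and Top2a, which are transcribed in dividing cells. It was called non-cycling when it held no read of either gene, and all other cells formed an intermediate class. Of 574 spleen cells, 544 reached 160000 reads over gene rows, and 166 of these were cycling (30.5%, exact binomial 95% interval 26.7% to 34.6%), 238 intermediate and 140 non-cycling. The same gate in the small intestine gave 38 cycling, 69 intermediate and 68 non-cycling cells among the 175 of 190 cells with this depth (21.7% cycling, interval 15.8% to 28.6%). Members were selected on their reads of these 2 genes, so the gate genes are no finding between the classes. All intervals are of counting error in numbers of cells alone, because no label names the animal of a cell. Reads carry no molecular identifiers, so several may stem from 1 molecule.

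The cells came from mice that carried an eGFP reporter of Il10 together with an mRFP reporter of Foxp3, which defines regulatory T cells. All mice had been injected with an antibody against CD3, a part of the T-cell receptor complex, which stimulates T cells and drives them to divide. IL-10 reporter-positive CD4+ T cells, Foxp3+ cells included, were sorted singly, and their cDNA was amplified over its full length and sequenced (SMART-seq2). There were no untreated mice and no reporter-negative cells, so the values describe cells selected for the Il10 reporter after stimulation in vivo. As no label ties a cell to an animal, a tissue stands for 1 sample here. No comparison has a replicate check, and no p-value is given.

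A T cell that leaves quiescence passes through G1, in which D-type cyclins act on the retinoblastoma proteins that hold E2F factors in check. E2F targets then supply the enzymes of DNA replication and nucleotide synthesis in S phase. In G2 and M phase the MuvB complex, with B-MYB and FOXM1, drives genes of the mitotic kinases, the spindle and cytokinesis. Their promoters often carry CCAAT boxes and a CHR element (cell cycle genes homology region).

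One or both of these elements can be read in the promoters of the gate gene Top2a and of the marker genes Cdk1 and Ccnb1. They are shown with the promoter of Isg15, an interferon-induced gene that was lower in cycling cells. The windows span 250 bases before and 50 bases after the start of the gene, 5′ to 3′ on the strand of the gene, from RefSeq on GRCm38.p6. Capitals mark the CHR core TTTGAA and CCAAT on either strand in the first 3 windows. In Isg15 they mark overlapping matches to GAAA, 2 bases, GAAA, the pattern of an interferon-stimulated response element. The windows are Top2a chr11:99024140-99024439, Cdk1 chr10:69352863-69353162, Ccnb1 chr13:100786437-100786736 and Isg15 chr4:156200769-156201068, all on the minus strand.

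Top2a: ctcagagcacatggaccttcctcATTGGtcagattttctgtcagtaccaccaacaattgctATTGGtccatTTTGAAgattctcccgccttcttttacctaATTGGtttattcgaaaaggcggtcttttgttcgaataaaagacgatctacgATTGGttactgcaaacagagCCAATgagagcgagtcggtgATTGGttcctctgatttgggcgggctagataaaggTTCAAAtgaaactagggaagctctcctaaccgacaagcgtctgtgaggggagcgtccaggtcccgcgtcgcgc
Cdk1: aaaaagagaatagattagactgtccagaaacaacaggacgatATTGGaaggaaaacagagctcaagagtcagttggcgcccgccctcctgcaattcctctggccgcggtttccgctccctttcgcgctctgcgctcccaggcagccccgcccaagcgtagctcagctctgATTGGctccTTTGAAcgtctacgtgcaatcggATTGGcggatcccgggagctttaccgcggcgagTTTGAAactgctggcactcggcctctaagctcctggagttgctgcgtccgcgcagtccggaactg
Ccnb1: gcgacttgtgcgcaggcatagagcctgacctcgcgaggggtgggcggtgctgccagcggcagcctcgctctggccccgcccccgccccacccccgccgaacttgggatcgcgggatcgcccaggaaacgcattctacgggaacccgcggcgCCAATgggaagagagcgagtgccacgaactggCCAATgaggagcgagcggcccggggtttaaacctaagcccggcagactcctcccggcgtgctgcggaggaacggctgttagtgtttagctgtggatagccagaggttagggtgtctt
Isg15: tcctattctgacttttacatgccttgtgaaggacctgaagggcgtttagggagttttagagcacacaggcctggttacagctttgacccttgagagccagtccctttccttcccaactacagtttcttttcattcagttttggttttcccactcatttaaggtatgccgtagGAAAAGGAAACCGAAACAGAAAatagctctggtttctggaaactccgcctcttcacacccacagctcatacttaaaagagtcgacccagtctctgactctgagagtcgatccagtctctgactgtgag

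Top2a held 2 CHR cores and 6 CCAAT boxes, Cdk1 held 2 and 3, and Ccnb1 held 0 and 2. The Isg15 window held 3 overlapping interferon-type matches. Over the list of 56 G2 and M phase genes, of which 48 had a promoter entry, 66.0% of 53 windows held a CHR core and 75.5% a CCAAT box. Among all 32851 promoter windows of the mouse the shares were 17.9% and 37.4%, and among the windows of all genes tested here 12.2% and 37.9%. The S phase list had a CHR core in 17.6% and a CCAAT box in 67.6% of its 34 windows. An E2F match (TTTCCCGC or TTTGGCGC, either strand) was in 29.4% of them, against 1.56% of all windows, 3.36% of those of the genes tested and 3.77% of the G2 and M phase windows. The interferon list had the interferon-type pattern in 45.8% of 24 windows, against 3.44% of all windows and 3.19% of those of the genes tested. A match is a run of letters and not a shown binding site.

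The gate separated the cells widely. In cycling cells the lower of the 2 read counts had a median of 371, and no count of either gene was under 13. Only 1 cycling cell had a lower count of 10 to 14, and 4 intermediate cells had one of 5 to 9, the highest being 7. Of the intermediate cells, 93 owed their class to a single read, 140 had both counts under 10, and 73 had at least 10 reads of one gene and none of the other. Mki67 ranged from 48.2 to 5468 CPM (CPM, the reads of a gene scaled by the total reads of the cell, median 1400) in cycling cells and Top2a from 54.6 to 6017 CPM (median 1572). These values chose the cells and are given as a description.

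**Figure D1:**
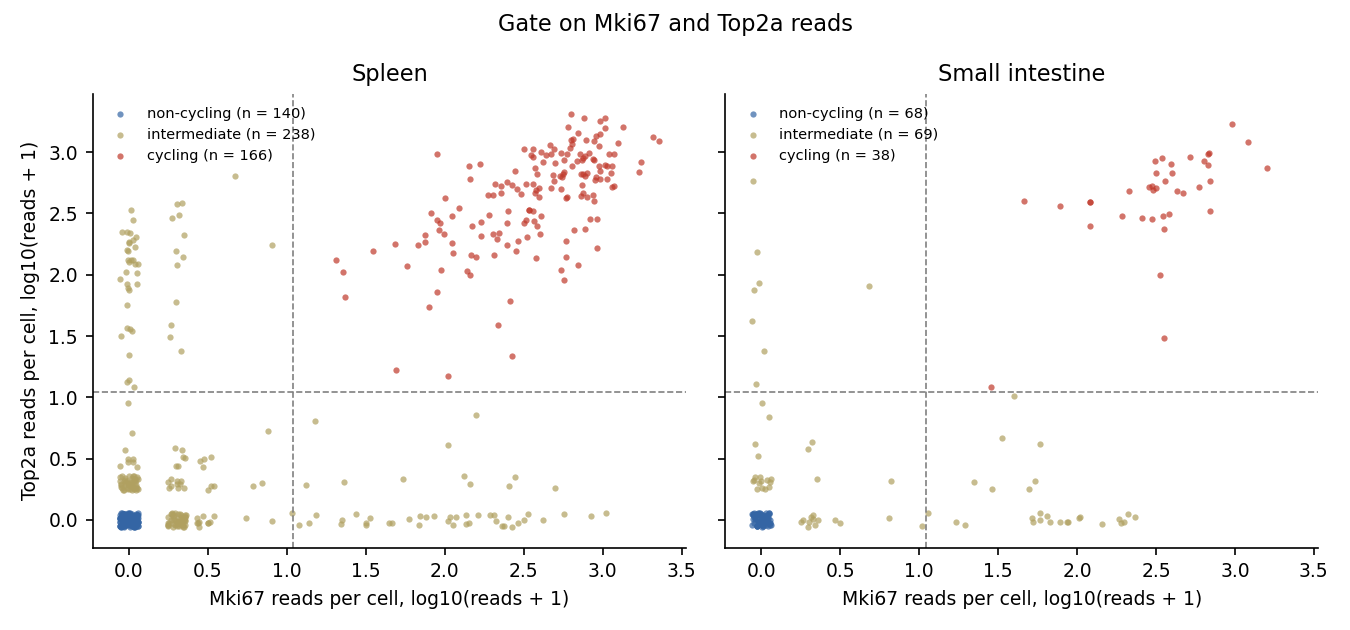
Reads of Mki67 (horizontal axis) and Top2a (vertical axis) in each spleen and small intestine cell, as log10(reads + 1) with a small random shift so that points do not hide each other. Dashed lines mark 10 reads. Cycling cells (red) lie in the upper right, non-cycling cells (blue) at the origin, and most intermediate cells (tan) near the axes.

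The 3 further markers of dividing cells went with the gate. Birc5, which encodes survivin of the chromosomal passenger complex, had a median of 630 CPM in cycling cells (range 0 to 2197) and of 0 in non-cycling cells (range 0 to 332), with a read in 87.3% of cycling cells and in 14 of 140 non-cycling cells. Ccnb1 (cyclin B1) had a read in 69.9% and 2.86% of cells. Cdk1, the kinase that cyclin B1 activates at entry into mitosis, had a median of 562 CPM (range 0 to 3036) in cycling cells. Its highest value in any non-cycling cell was 43.0 CPM. A minority of cycling cells without a Birc5 or Ccnb1 read overlapped the non-cycling class. Cd3e and Cd4 had a read in every cycling and every non-cycling cell, with log2 ratios of -0.27 and -0.22, so cells of both classes expressed these defining genes.

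Markers of other cell types had medians at or near 0 in both classes, with reads in a minority of cells. The summed B cell markers had a median of 0 CPM in either class, with a highest value of 511 CPM in a cycling cell and 1991 CPM in a non-cycling cell. Epithelial markers (highest 843 and 932 CPM), CD8 T and NK cell markers (947 and 5899 CPM) and erythroid markers (62.8 and 47.2 CPM) also had medians of 0. The myeloid list had medians of 159 and 118 CPM, which came from Cst3, a gene that was read in 88.6% of cycling cells and 98 of 140 non-cycling cells. The other myeloid genes were read in few cells. Over the 9 genes, with each cell thinned to 160000 reads, the share of cells that held a read had a median of 1.20% in cycling and 0 in non-cycling cells, 8 had a larger share in cycling cells, and 5 had no read in any non-cycling cell. Of these markers, 2 passed the fold with 1 sign in all 3 spleen sets, the rule given below. A CD8 T and NK cell marker had a lower pooled ratio still, at -4.61, but its sign was not the same in all sets. Cd74, which B cells express, averaged 19.8 CPM in cycling and 43.6 CPM in non-cycling cells (log2 ratio -1.10), with a read in 13.9% and 12.9% of cells. Epcam, an epithelial marker, stood at -1.85, with highest values of 476 and 932 CPM and a read in 6.63% and 13.6% of cells. Both were thus lower in cycling cells, as were Cxcr5 and interferon genes below. Leaving out every cell with at least 10 reads of another lineage's defining markers removed 34 of 166 cycling and 32 of 140 non-cycling cells. The genes called below were then 764 higher and 373 lower. Cxcr5 stood at -1.97, Isg15 at -1.85 and the median of the interferon list at -0.93. Epcam stood at -0.16, but it was one of the markers by which cells were left out, so its move follows from that choice. Cd74 was not one of them and stood at -1.54, though it was no longer called. This alternative was chosen after the values were seen.

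Spleen cells came from plates 1 and 2 and are also given as 3 sets: the left part of plate 1 (p1 columns 1 to 12), its right part (p1 columns 13 to 24), and p2. Cycling cells made up 27.6% (50 of 181), 29.3% (54 of 184) and 34.6% (62 of 179) of these sets, with intervals that overlap. Single well columns of the plates ranged more widely, from 6.67% to 60%. Depth was alike, with a median of 337826 reads in cycling cells (range 176035 to 548976) and 353508 in non-cycling cells (range 162801 to 596196). Cycling cells nevertheless had reads on more genes. At 160000 reads per cell, cycling spleen cells had a median of 4020 genes with a read, intermediate cells 3071 and non-cycling cells 2939. The medians were 4274, 3018 and 2829 in the small intestine. The part of this in the results below was not tested.

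Across the genome, a gene counted as higher or lower when the log2 ratio of mean CPM (each with 1 CPM added) was at least 1 or at most -1, a 2-fold difference, with the same sign in all 3 sets. Of 8431 genes with a mean of at least 10 CPM, 703 were higher in cycling cells (8.34%) and 330 lower (3.91%). The median log2 ratio of all these genes was -0.07. Names typical of the cell cycle accounted for 182 of the higher and 5 of the lower genes, which left 521 and 325 others. In the small intestine, without a set rule, 1239 of 8149 genes were higher (15.2%) and 804 lower (9.87%). Of the 630 genes higher in the spleen that could be tested in the small intestine, 490 were past the fold there too (77.8%), which is 41.8% of the 1173 higher small intestine genes tested in the spleen. For lower genes the overlap was 59 of 240 (24.6%), or 9.08% of 650. The balance of calls depended on how cells were averaged. With the mean of log2(CPM + 1) per cell, which weights the number of cells with a read, the median of all genes moved to 0.60, and 2468 genes were higher and 29 lower. Counted relative to that median, the numbers were 1076 and 295.

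**Figure D2:**
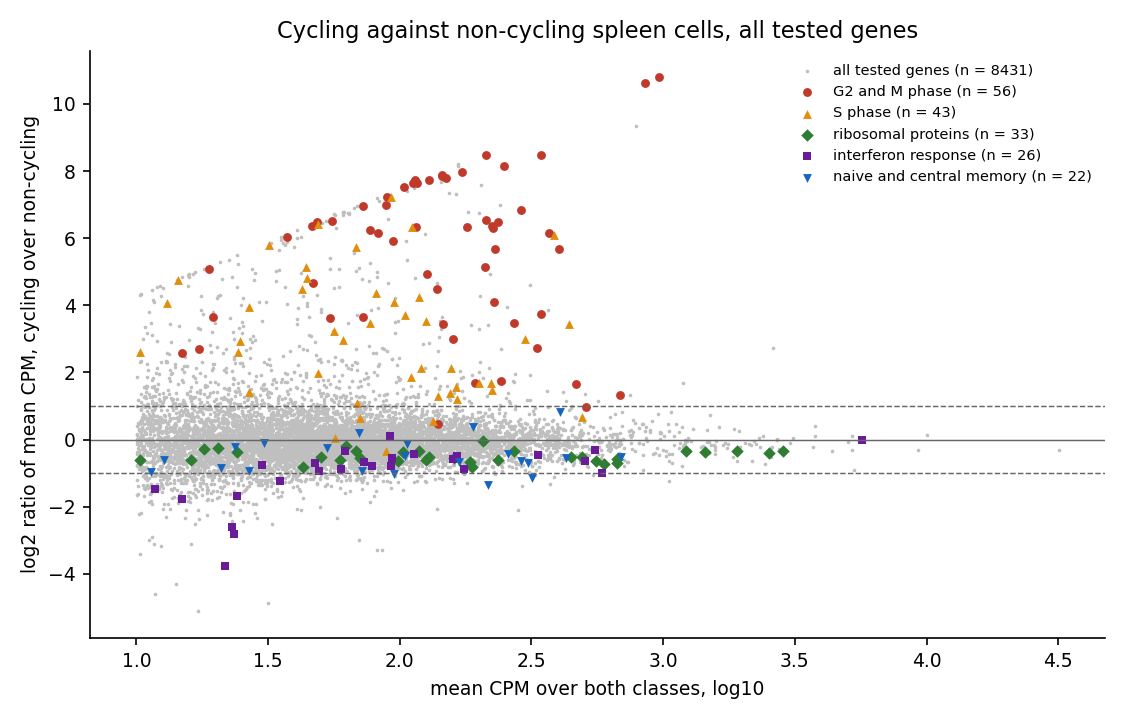
Log2 ratio of mean CPM in cycling over non-cycling spleen cells (vertical axis) against the mean CPM over both classes (log10, horizontal axis) for 8431 genes, with 5 gene lists in colour and dashed lines at a ratio of 1 and -1. G2 and M phase genes and most S phase genes lie high, and ribosomal protein, interferon response and most naive and central memory genes lie below 0.

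Genes of the cell cycle itself go with the gate by its construction, and their values describe how far it reached. Of 56 tested G2 and M phase genes, 54 were higher (median log2 ratio 6.21), and of 43 S phase genes 38 were higher (median 2.98). Tpx2, which activates Aurora A at the spindle, had a median of 309 CPM in cycling cells, and no non-cycling cell had more than 4.98 CPM. Cdc45, a part of the replicative helicase, averaged 170.2 and 0.139 CPM. Ctcf and Hn1 of the G2 and M phase list stayed under the fold, at 0.45 and 0.97. Ubr7, at -0.34, was the S phase gene with a ratio below 0.

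Genes listed for the step from G1 to S had ratios of both signs. The list holds cyclins, kinases, inhibitors and some transcription factors. Of 21 tested, 10 were higher (47.6%, against 8.34% of all genes) and 1 lower (4.76%, against 3.91%), with a median of 1.08. Ccna2 (cyclin A2) had a median of 1463 CPM in cycling cells (range 0 to 3718) and of 0 in non-cycling cells (range 0 to 18.3). The transcription factors Foxm1 (log2 ratio 6.40) and Mybl2 (B-MYB, listed at 0 in every non-cycling cell) and the inhibitor Cdkn2c (p18, 3.17) were higher too. As genes of the cell cycle, these higher genes go with the gate by its construction. B-MYB and FOXM1 act in G2 and M phase, as described above, and not at the step from G1 to S alone. The lower gene was Ccnd2 (cyclin D2), named after its value was seen, which averaged 648 CPM in cycling and 1522 CPM in non-cycling cells (log2 ratio -1.23, and -1.30, -1.30 and -0.96 in the sets). Ccnd3 stood at 0.44 and Cdk6 at 0.21.

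Of 31 tested enzymes that make nucleotides, 11 were higher (35.5%, against 8.34% of all genes) and none was lower. The summed list had a median of 5094 CPM in cycling cells (range 440.6 to 12642) and 2230 CPM in non-cycling cells (range 99.4 to 7003). Rrm2 (ribonucleotide reductase, log2 ratio 6.10), Tyms (thymidylate synthase, 4.24) and Tk1 (thymidine kinase, 4.21) led, and all of these act on the supply of deoxynucleotides. Rrm2 is also in the S phase list, whose genes go with the gate by its construction, so the 2 lists are not separate results. Cad and Impdh1, which act early in making pyrimidines and guanine nucleotides, stood at 0.00 and 0.01 in the spleen. In the small intestine they stood at 1.71 and 1.13, and there 20 of 30 genes of the list were higher (66.7%, against 15.2% of all genes in that tissue). Of 20 glycolysis genes tested 1 was higher (5%, against 8.34% of all genes), with a median of -0.06. Oxidative phosphorylation genes (35 tested, 0 past the fold) had a median of 0.19. Both lists lay near the median of all genes. Hk2 (hexokinase 2) was the higher glycolytic gene, with 32.2 against 10.9 CPM and a read in 35.5% of cycling cells against 21 of 140 non-cycling cells.

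Within the cycling class, cells differed by phase call. cyclone, a classifier that compares pairs of marker genes within a cell, used with all its markers, called 111 cycling cells G2M (66.9%, interval 59.2% to 74.0%), 23 S (13.9%) and 32 G1 (19.3%). The classifier calls a cell S when its G1 and G2M scores are both low, whatever its S score. For example, a cycling cell of p1 columns 13 to 24 was called S with an S score of 0.054. Another there was called G1 with an S score of 0.96. The calls are therefore no direct measure of S phase. All 140 non-cycling cells were called G1, as were 229 of the 238 intermediate cells. The G1-called cycling cells were not spread evenly, with 18 of 54 in p1 columns 13 to 24, 6 of 50 in p1 columns 1 to 12 and 8 of 62 in p2. Their median summed S phase level was 13173 CPM, beside 14719 CPM in S-called, 5367 CPM in G2M-called and 1344 CPM in non-cycling cells. For the G2 and M phase list the medians were 4493, 10406, 25377 and 1351 CPM. Ccne2 (cyclin E2), which acts at the entry into S phase, had a read in 46.9% of G1-called, 65.2% of S-called and 5.41% of G2M-called cells, while Plk1, a mitotic kinase, had one in 15.6%, 60.9% and 92.8%.

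Within the class, S and G2/M levels were set against each other. Without the gate genes, the summed S phase and G2 and M phase levels had a Pearson correlation of -0.49 and a Spearman correlation of -0.44 over 166 cycling cells. In non-cycling cells the values were 0.01 and -0.04 (n = 140), and in cycling small intestine cells -0.43 and -0.48 (n = 38). The points share plates, and both sums are parts of the same cell total. The G2 and M phase sum of 130 of the 166 cycling cells was above that of every non-cycling cell, and the S phase sum of 39 was. The classes therefore overlapped in both sums, and more so in the S phase sum.

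**Figure D3:**
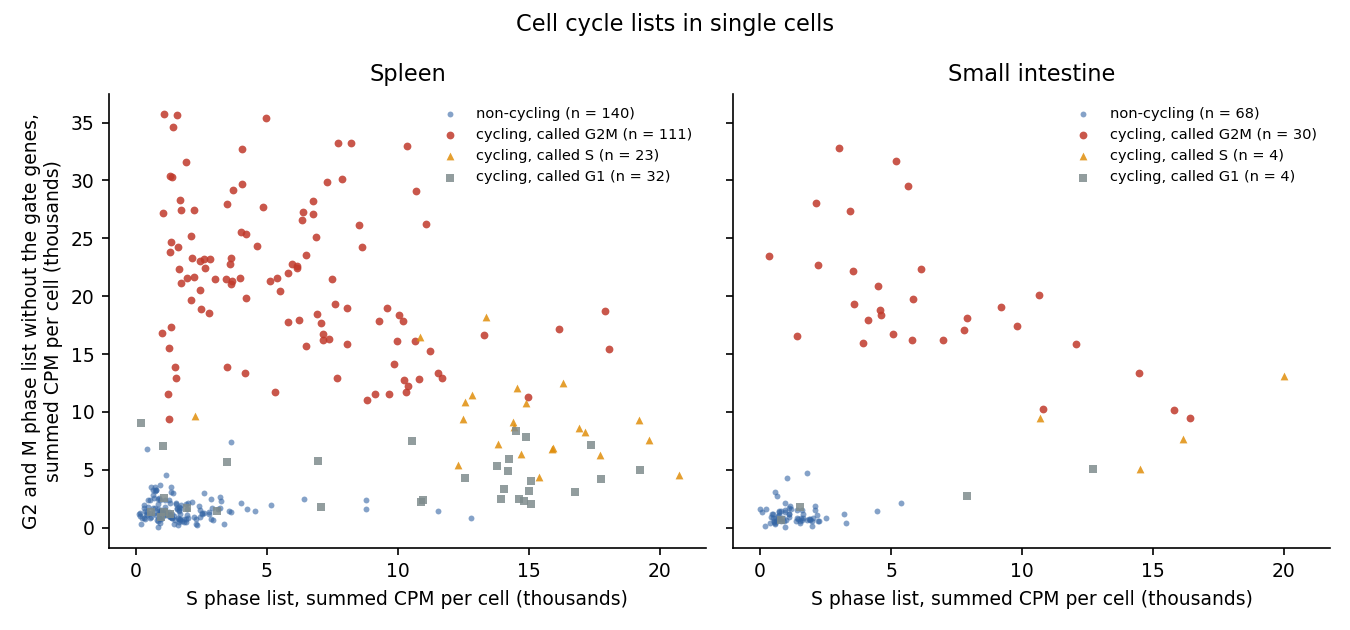
Summed CPM of the S phase list (horizontal axis, in units of 1000 CPM) and of the G2 and M phase list without the gate genes (vertical axis, same unit) in each cycling cell, by its cyclone call, with non-cycling cells in blue. G2M-called cells lie high, S-called cells to the right, and many G1-called cycling cells to the right but low, apart from the non-cycling cells near the origin.

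Genes of naive and central memory T cells had ratios mostly below 0. Of 22 tested, 3 were lower (13.6%, against 3.91% of all genes) and none was higher. A ratio below 0 was found for 19 of them (86.4%, against 55.1% of all genes). After thinning, 11 of the 22 genes had a read in a larger share of cycling cells and 11 in a smaller share. The median was -0.57, and -0.77, -0.73 and -0.51 in the sets. The sum of the list had a median of 2078 CPM in cycling cells and 3403 CPM in non-cycling cells, with ranges of 197 to 18101 and 235 to 17145 CPM that overlap almost fully. Tcf7, the transcription factor TCF-1 of stem-like memory cells, averaged 202 CPM in cycling cells (range 0 to 3143, median 0) and 452 CPM in non-cycling cells (range 0 to 3928, median 2.80), a log2 ratio of -1.16. The ratio was -1.43, -1.38 and -1.26 within the sets, and the gene left the called ones when cells with a Foxp3 read were taken out. Ccr7, the receptor for homing to lymph nodes, averaged 125 and 324 CPM (log2 ratio -1.36), with a read in 24.7% of cycling cells, in 42 of 140 non-cycling cells, and medians of 0. Il6ra (IL-6 receptor, -1.02) lay at the edge of the fold and fell under it in 10 of 17 alternatives.

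Of 19 tested quiescence genes 15 were below 0 (78.9%, against 55.1% of all genes; median -0.50) and 2 were lower past the fold (10.5%, against 3.91%), although the median turned to 0.18 with the mean of log2 values per cell. Btg1, an antiproliferative factor, was read in 91.0% of cycling and 97.1% of non-cycling cells. It averaged 217 CPM (range 0 to 859, median 163) and 458 CPM (range 0 to 2403, median 349), a log2 ratio of -1.07. Pik3ip1, a negative regulator of PI3 kinase, averaged 55.9 and 135 CPM (-1.26). Btg1 was under the fold in 4 of 17 alternatives and Pik3ip1 was not called in 3. The largest ratios above 0 in the list were those of Ccng2 (cyclin G2, 0.93) and Klf6 (0.89), both under the fold.

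Follicular helper genes were below 0 without exception in the pooled ratio, in 13 of 13 tested (100%, against 55.1% of all genes; median -0.54). Only Cxcr5 was past the fold (7.69%, against 3.91% of all genes). The shares of cells with a read went otherwise. After thinning, 12 of 17 genes of the list had a read in a larger share of cycling cells and 4 in a smaller share. This is not particular to the list, since cycling cells had reads on more genes in general. Of 45 transcription factors, 41 had a larger share in cycling cells and 4 a smaller one. The naive and central memory genes were split, at 11 and 11. The count over all genes was not taken. Cxcr5, the receptor that leads T cells to B cell follicles, averaged 111 CPM in cycling cells (range 0 to 1409, median 0), 356 CPM in intermediate cells and 482 CPM in non-cycling cells (range 0 to 7546, median 5.82). A read was present in 37.3% of cycling cells (interval 30.0% to 45.2%) and in 58.6% of non-cycling cells (interval 49.9% to 66.8%), or in 31.9% and 52.1% after thinning. The log2 ratio was -2.11, and -1.06, -3.53 and -2.23 in the sets, and it stayed past the fold in all 17 alternatives. The classes overlapped, since cells without a read made up a large share of both. Il21, a cytokine of follicular helper cells, stood at -0.92, Folr4 (folate receptor 4) at -0.90, and Pdcd1 (PD-1) at -0.18. Cxcr5 was near 0 in both small intestine classes (0.454 and 0.459 CPM).

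None of the 10 cytokine genes tested, of 24 listed, passed the fold with 1 sign in all sets (median -0.19, which moved to 0.23 with the mean of log2 values per cell). Il10 averaged 1335 CPM in cycling cells (range 0 to 6347, median 716) and 1520 CPM in non-cycling cells (range 0 to 10382, median 844), a log2 ratio of -0.19. Its sign differed between sets, at -0.30, -0.27 and 0.25. Il10 was read in 88.6% of cycling and 87.9% of non-cycling cells, and the eGFP row of the reporter in 63.9% and 57.9%. The interval of each share holds the share of the other class. Areg (amphiregulin), named after its value was seen, stood at 2.58, but at -0.04 in p2, where no cell held 10 reads of it.

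Inside the cycling class, Il10 levels differed with the phase call. Median Il10 was 2191 CPM in G1-called, 708 CPM in S-called and 583 CPM in G2M-called cycling cells. In the same order of calls, the medians were 3187, 855 and 725 CPM in p1 columns 1 to 12, 1282, 1754 and 380 CPM in p1 columns 13 to 24, and 2906, 440.2 and 439 CPM in p2. G1-called cells (6, 18 and 8 in the sets) were above G2M-called cells in each set, but in p1 columns 13 to 24 the 7 S-called cells had the highest median. Among the 38 cycling cells of the small intestine the medians were 1579 CPM in 4 G1-called, 344 CPM in 4 S-called and 897 CPM in 30 G2M-called cells. The summed cytokine list had medians of 3203, 1535 and 1026 CPM over the 3 calls and 1435 CPM in non-cycling cells. Taking G1-called cells out of the cycling class moved the median cytokine ratio to -0.45.

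Chemokine ligands were few and rested on few cells. Of 5 tested, Ccl1 was past the fold at 6.70 (20% higher, against 8.34% of all genes). Yet 78.9% of its summed CPM in cycling cells came from 2 cells. A read was present in 5.42% of cycling and 3.57% of non-cycling cells. Ccl3 averaged 554 and 303 CPM (0.87) and Ccl4 1274 and 926 CPM (0.46). Of 19 tested cytotoxic granule genes none was past the fold with 1 sign in all sets (median 0.27). Nkg7, a granule membrane protein, averaged 2467 and 2290 CPM (0.11). Gzma stood at 0.80, with 75.8% of its cycling sum in 2 cells, and Serpinb9, an inhibitor of granzyme B, at 0.79. Lamp1, a lysosome membrane protein, stood at -0.96.

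Co-inhibitory receptors lay near the median of all genes, with 2 of 13 tested higher (15.4%, against 8.34%), none lower and a list median of 0.09. Lag3 averaged 2124 CPM in cycling cells (range 0 to 8695, median 1689) and 3078 CPM in non-cycling cells (range 0 to 18406, median 2243), a log2 ratio of -0.53. Tigit had medians of 2713 and 2705 CPM (log2 ratio -0.03). Pdcd1 stood at -0.18 and Btla at -0.80. Lilrb4 was higher at 1.06 (136 and 64.8 CPM), a value that is uncertain because reads of its near-identical paralogs may be split between copies. Lair1 was higher at 1.98, but all of its non-cycling signal came from 2 cells.

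Costimulatory receptors held 1 lower gene among 16 tested (6.25%, against 3.91% of all genes; median -0.17). This was Cd69, an early activation marker, at 100.4 CPM in cycling and 228 CPM in non-cycling cells (-1.17, and -1.35, -1.15 and -1.21 in the sets). It was read in 42.8% and 42.1% of cells, so the difference lay in the level of the cells that had it. Slamf6 stood at -0.82, Cd27 at -0.51, Cd28 at -0.05 and Tnfrsf18 (GITR) at 0.07. The 41 transcription factors tested had a median of -0.16. Tcf7 was their lower member (2.44%, against 3.91% of all genes), and 1 was higher (2.44%, against 8.34%).

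Among 23 cytokine receptors 2 were higher (8.70%, against 8.34% of all genes) and 2 lower (8.70%, against 3.91%), with a median of -0.26. Il18r1, a chain of the IL-18 receptor that arms effector cells, averaged 79.4 CPM in cycling cells (range 0 to 796), 59.6 CPM in intermediate and 22.4 CPM in non-cycling cells (range 0 to 884), a log2 ratio of 1.78. It was read in 33.7% of cycling cells (interval 26.6% to 41.5%) and in 21 of 140 non-cycling cells. The sign was the same in each set, at 1.19, 2.02 and 1.83, and the medians were 0 in both classes. The sign was the opposite in the small intestine, with 71.7 CPM in cycling and 305 CPM in non-cycling cells (-2.07). Il2ra (CD25), a receptor for the growth factor IL-2, stood at 0.03 and Il2rb at -0.03. Il1r2 (1.05) and Il15ra (-1.09) were each read in at most 14 cells of 140 in the non-cycling class and in 9.64% and 9.04% of cycling cells. Their calls were lost in 7 and 5 of 17 alternatives.

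The remaining lists had few members past the fold. Of 22 tested trafficking receptors, Cxcr5 and Ccr7 were lower (9.09%, against 3.91% of all genes) and none was higher (median -0.13). Cxcr3, which guides cells to inflamed tissue, stood at -0.90. None of 17 tested regulatory T cell genes was past the fold with 1 sign in all sets (median -0.01), and Foxp3 itself averaged 115 CPM in cycling and 106 CPM in non-cycling cells (log2 ratio 0.11), with medians of 0. Of 20 survival and apoptosis genes, 1 was lower (5%, against 3.91% of all genes). This was Fas, a death receptor, at 71.9 and 170 CPM (-1.23), but its ratio was -0.18 in p1 columns 1 to 12. Of 27 immediate early and receptor signalling genes, 1 was lower (3.7%, against 3.91% of all genes; median -0.15). This was again Cd69, which is also in the costimulatory list.

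The S100, annexin and galectin list also holds Vim, a gene of none of these families. Of its 15 genes tested, 3 were higher (20%, against 8.34% of all genes), Vim among them. None was lower, and the median was 0.25. Lgals3 (galectin-3) averaged 308 CPM in cycling cells (range 0 to 2978, median 3.71) and 85.4 CPM in non-cycling cells (range 0 to 1628, median 0), a log2 ratio of 1.84, with 1.99, 1.34 and 2.29 in the sets. Vim (vimentin) averaged 753 and 340.1 CPM (1.14), with medians of 566 and 5.78 CPM and a read in 90.4% and 63.6% of cells. Anxa2 (annexin A2) averaged 699 and 274 CPM (1.35), but its ratio was 0.23 in p1 columns 1 to 12. S100a11 stood at -0.05. None of the 3 was past the fold in the small intestine, where the ratios were -0.55 for Lgals3, 0.12 for Vim and -0.73 for Anxa2.

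**Figure D4:**
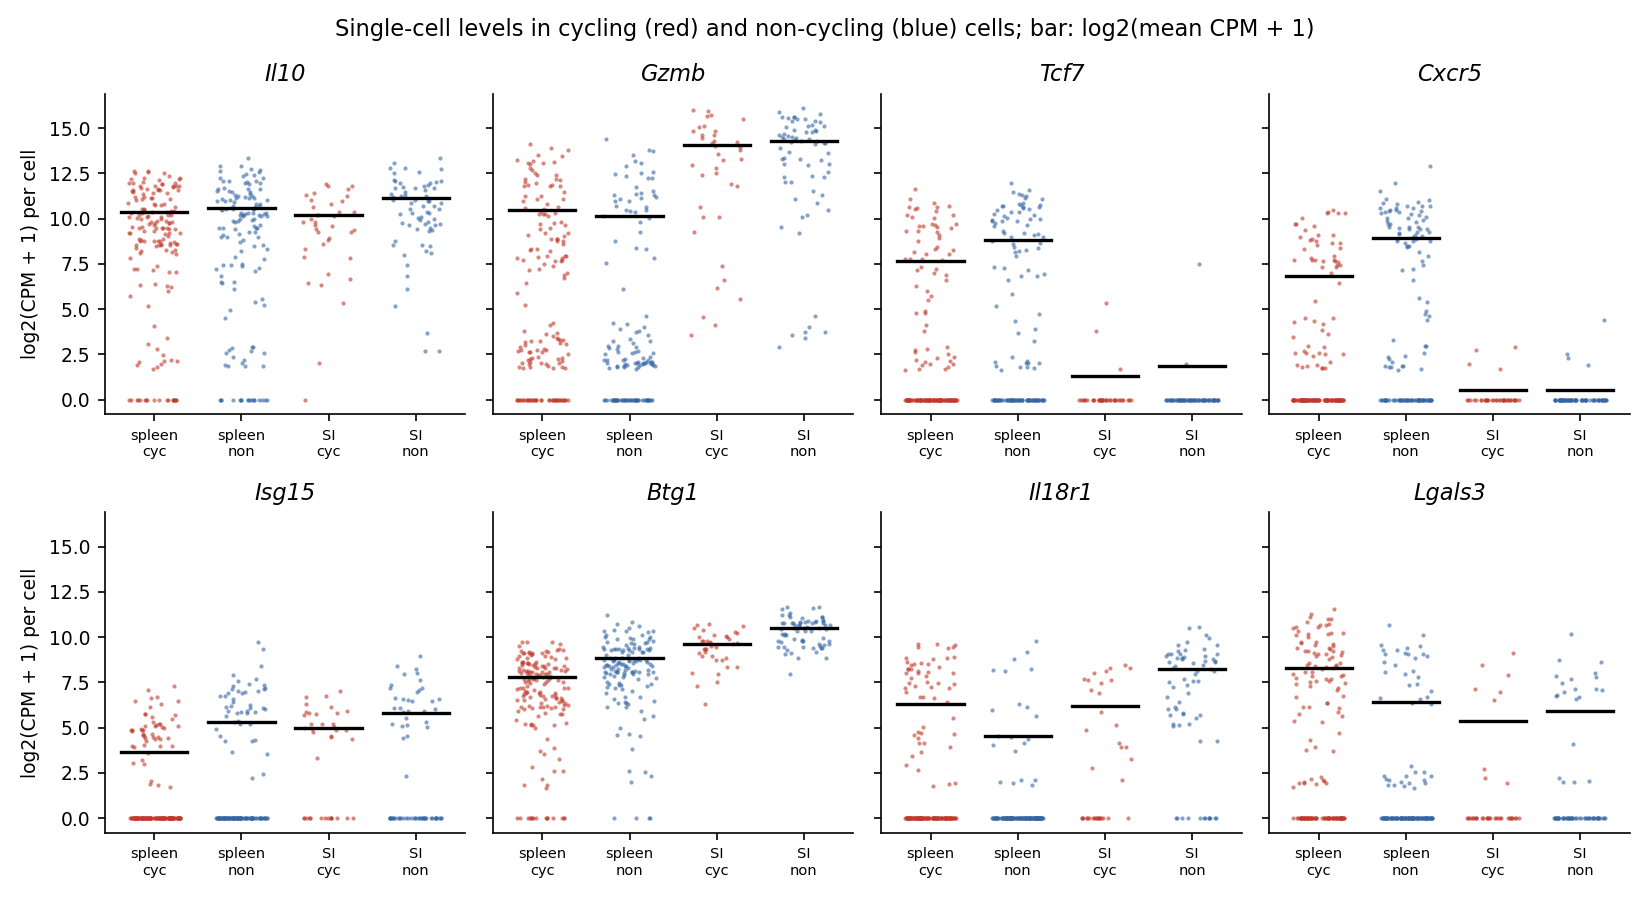
Level of 8 genes in each cycling (red) and non-cycling (blue) cell of the spleen and the small intestine (SI), as log2(CPM + 1); black bars mark the log2 of the mean CPM + 1. Points overlap widely between classes, and the classes differ mainly in how many cells sit at 0 (Cxcr5, Tcf7, Lgals3, Il18r1) or, for Btg1, in a shift of the cloud.

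Of 26 tested interferon-induced genes, 7 were lower (26.9%, against 3.91% of all genes) and none was higher. A ratio below 0 was found for 25 (96.2%, against 55.1% of all genes), 20 of them in all 3 sets. The share of all genes below 0 in all 3 sets was not counted. The lower values lay in mean levels and not in how many cells had a read. After thinning, 17 of the 26 genes had a read in a larger share of cycling cells and 9 in a smaller share. The median ratio was -0.78, and -0.64, -0.49 and -0.98 in the sets. Isg15, a ubiquitin-like protein whose promoter is printed above, averaged 11.4 CPM in cycling cells (range 0 to 154), 38.9 CPM in intermediate and 39.0 CPM in non-cycling cells (range 0 to 831), a log2 ratio of -1.69. A read was present in 31.3% and 33.6% of cells, so the difference lay in cells with high levels rather than in how many had a read. Mx1, an antiviral GTPase, averaged 6.26 and 43.1 CPM (-2.60) and Ifit1 5.46 and 44.8 CPM (-2.83), with a read in 5.42% of cycling cells for both, and in 16 and 21 of 140 non-cycling cells. Ly6a (Sca-1) stood at -0.01. With the mean of log2 values per cell the median moved to -0.15, which is -0.76 relative to the median of all genes. Of 22 tested in the small intestine, 7 were lower (31.8%, against 9.87% of all genes there; median -0.51).

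Ribosomal protein genes were below 0 in 33 of 33 tested (100%, against 55.1% of all genes), 31 of them in all 3 sets. None reached the fold. The median ratio was -0.51 (-0.45, -0.36 and -0.73 in the sets), with a range of -0.83 for Rpl37 to -0.04 for Rps2. Rps14 had a median of 415 CPM in cycling cells (range 75.6 to 2143) and 711 CPM in non-cycling cells (range 175 to 2619). The list had a median of 0.13 in the small intestine. These are shares of the reads of a cell, and a lower share of the same genes and less RNA of them per cell cannot be told apart.

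**Figure D5:**
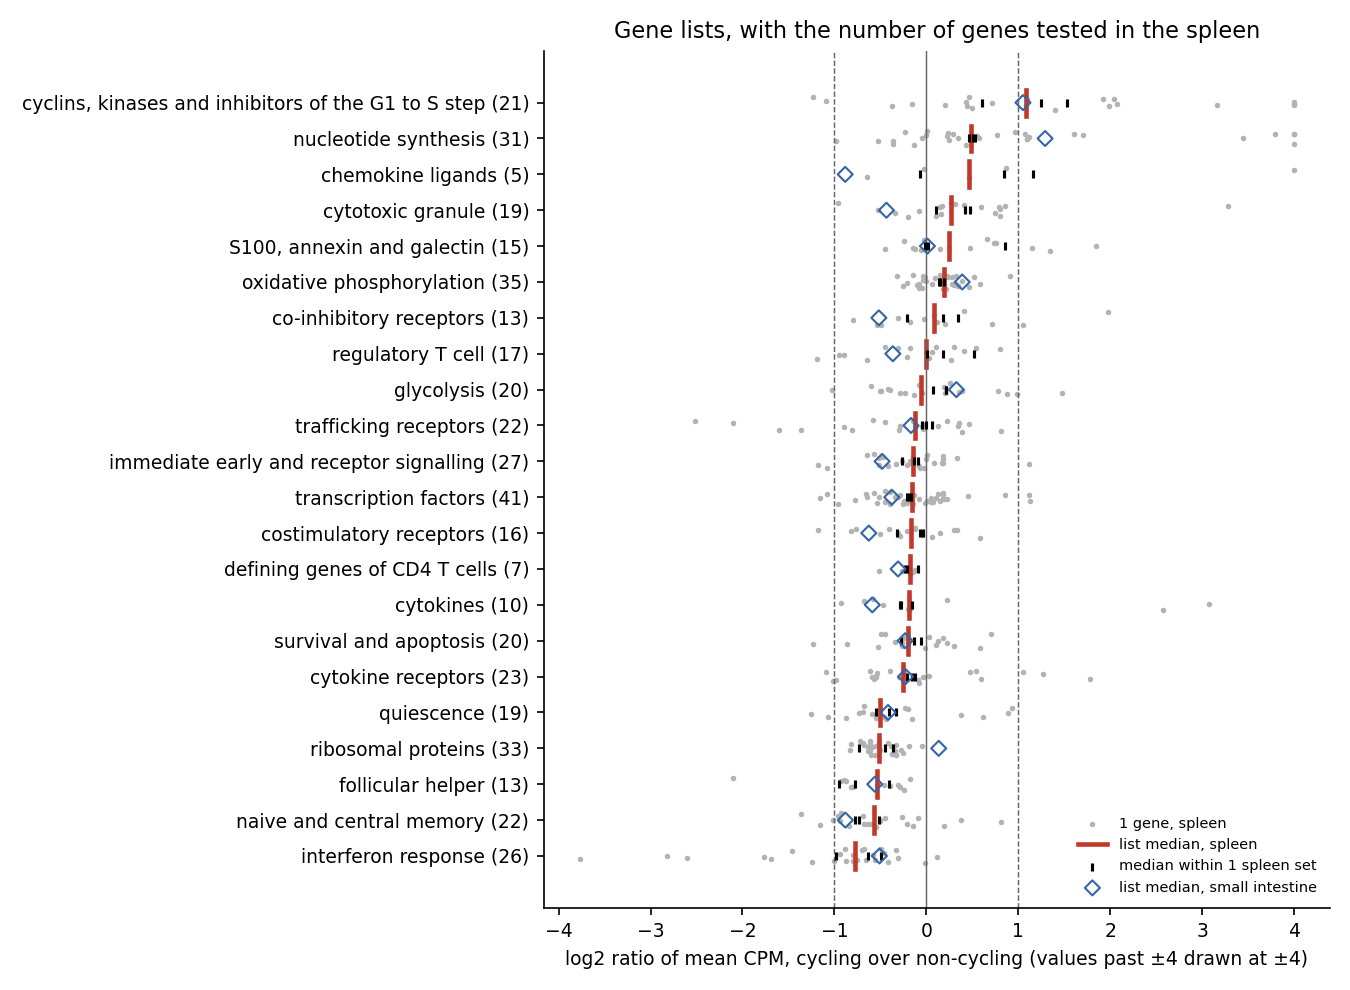
Log2 ratio of cycling over non-cycling spleen cells for each tested gene (grey), with the median of each list (red), its median within each spleen set (black) and in the small intestine (blue diamonds). The interferon, naive and central memory and follicular helper lists have medians below 0 in every set and in the small intestine. The same holds for the quiescence, cytokine, costimulatory, cytokine receptor, transcription factor, survival, immediate early and CD4 T cell defining lists. Ribosomal genes have medians below 0 in the spleen sets but not in the small intestine.

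Outside the typical names of cycle genes, and among genes with a read in 25% of cycling cells or more, the 12 highest included Casc5, Aspm, Shcbp1, 2810417H13Rik, Pbk, Spag5, Neil3, Cep55, Esco2, Asf1b and Sgol1, with log2 ratios of 8.21 to 6.95. Several are themselves parts of division. The typical names thus did not catch every cycle gene, and the 521 other higher genes counted above still hold some that go with the gate. Casc5 belongs to the kinetochore, Aspm to the spindle pole, Cep55 to cytokinesis, and Esco2 and Sgol1 to the cohesion of sister chromatids. All those named were past the fold in the small intestine too. Casc5 averaged 307 CPM in cycling and 0.0369 CPM in non-cycling cells, and Aspm 306 and 0.0876 CPM.

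The 12 lowest such genes were Tcp11l2, Kdm5b, Cxcr5, Gpm6b, Vav3, Matk, Phf1, Triap1, Isg15, 3830406C13Rik, Gbp8 and Slc26a11, with log2 ratios of -3.29 to -1.61. Tcp11l2 averaged 16.3 CPM in cycling cells (range 0 to 1116) and 169 CPM in non-cycling cells (range 0 to 2791), with a read in 10.2% and 36.4% of cells. Kdm5b, a demethylase of histone H3 lysine 4, averaged 15.8 CPM in cycling (range 0 to 461), 114 CPM in intermediate and 134 CPM in non-cycling cells (range 0 to 1440). A Kdm5b read was present in 19.3% of cycling and 51.4% of non-cycling cells, and the log2 ratio was -3.11, -2.15 and -3.28 in the sets. Both genes were lower in the small intestine as well, at -2.40 and -4.69. Matk (Csk homologous kinase) and Triap1, in contrast, stood at 0.64 and 1.06 there. Vav3, a signalling protein of lymphocytes, and Phf1, a Polycomb-associated protein, were lower in both tissues.

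Read from the genes' side, the share of cycling cells differed with the genes a cell carried. For genes chosen after their values were seen, cells with at least 10 reads were set beside all other spleen cells. Of cells with Cxcr5, 18.2% were cycling (37 of 203, interval 13.2% to 24.2%), and of cells without it 37.8% (129 of 341, interval 32.7% to 43.2%). The order was the same in each set, at 21.4% and 31.5%, 7.41% and 38.5%, and 22.8% and 44.0%. Ccr7 (19.1% with and 33.6% without), Tcf7 (48 of 200 and 118 of 344 cells) and Isg15 (18.6% and 34.2%) went the same way in the pooled cells and in each set. With a cut at 1 read the gaps were narrower, at 22.5% and 38.8% for Cxcr5, 41 of 153 and 125 of 391 cells for Ccr7, 68 of 262 and 98 of 282 cells for Tcf7, and 27.5% and 32.1% for Isg15, and the intervals overlapped for all but Cxcr5.

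Cxcr6, a chemokine receptor of effector and tissue-homing T cells, went the other way, with 42.1% cycling among cells with it (104 of 247, interval 35.9% to 48.5%) and 20.9% among cells without it (62 of 297, interval 16.4% to 25.9%). In the sets the shares were 33.8% and 22.8%, 41.4% and 15.3%, and 52.9% and 23.4%. Cells with Gzmb (granzyme B) were cycling in 40.2% and others in 24.7%, but the values were 28.2% and 27.3% in p1 columns 1 to 12. Havcr2 (TIM-3) gave 41.1% and 26.6%. The mean levels of these genes differed less between classes, with log2 ratios of 0.39 for Cxcr6, 0.31 for Gzmb and 0.71 for Havcr2, and the sign for Gzmb and Havcr2 was not the same in all sets. Cycling cells also had reads on more genes, and its part in these shares was not tested. Of cells with at least 10 Foxp3 reads 33.6% were cycling (47 of 140, interval 25.8% to 42.0%), and of others 29.5% (119 of 404, interval 25.1% to 34.2%). Cells with Foxp3 were unevenly spread over the sets, and within each set their cycling share was higher, at 34 of 104 against 16 of 77 cells, 9 of 28 against 45 of 156, and 4 of 8 against 58 of 171. The intervals overlapped in each set. Without cells with a Foxp3 read, the lists above kept the sign of their medians except the regulatory T cell list, which stood at -0.01 with and 0.01 without them.

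The gate found fewer cells among those of the small intestine, all on p2, where tissue and plate position cannot be told apart. Of the 38 cycling cells, 30 were called G2M, 4 S and 4 G1, and the medians of the S phase and G2 and M phase lists were 3.24 and 5.30. The naive and central memory list had only 7 tested genes (median -0.88), the others having a mean under 10 CPM in that tissue. Il10 averaged 1181 CPM in cycling and 2263 CPM in non-cycling cells (-0.94, under the fold), and Nkg7 2298 and 4328 CPM (-0.91). Gzma (granzyme A) averaged 33214 and 37545 CPM (-0.18). The cytotoxic, co-inhibitory and costimulatory lists had medians of -0.43, -0.52 and -0.63 there, against 0.27, 0.09 and -0.17 in the spleen, and these differences between tissues were not tested.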

How the data were processed

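Single CD4+ T cells of the spleen and small intestine were measured, 1 cell per labelled sample. The authors aligned reads with STAR in 2 passes and deposited raw read counts per gene, 1 table per tissue. The labels name mm10 and the study's methods name Mm8. The tool that counted reads and the annotation are not given in the sources used here, so no coordinate of the files was used. Promoters were matched by gene name to RefSeq on GRCm38.p6. The tables hold 23997 gene rows, of which 88 join several genes and 2 repeat a name, with no mitochondrial or spike-in row and with 0 identical pairs of cells. The row of the reporter (eGFP) held 0.00980% of reads.

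Cells with at least 160000 reads were kept. Counts were scaled to CPM per cell, and mean CPM of cycling and non-cycling cells were compared as log2((mean + 1)/(mean + 1)) for genes with a mean of at least 10 CPM, together with the same ratio in each of 3 spleen sets. No test was made, because each tissue is 1 sample. Shares have exact (Clopper-Pearson) 95% intervals. Cells were sorted singly into wells, so no doublet caller was run. Phases were called with cyclone (scran 1.30.0), for which 22643 names were paired with Ensembl identifiers and 635 of 667 marker genes were present. Scaling alternatives used edgeR 4.0.16 (TMM) and DESeq2 1.42.0 size factors, in R 4.3.3. Other steps used Python 3.11.15 with numpy 2.4.6, pandas 2.3.3, scipy 1.17.1 and matplotlib 3.10.9. The scripts were tested on simulated data.

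The members and the 29 gene lists were chosen with earlier results of these data known. Named genes were the gate genes, 5 division markers, Il10, Foxp3 and eGFP; per list up to 4 genes of the largest ratio with 1 sign in all sets and up to 2 of the smallest; and the 12 highest and 12 lowest genes outside typical cycle names with a read in 25% or more of cells of the higher class. Others (Ccnd2, Areg, Gzmb, Havcr2, Cxcr6, Ccne2, Plk1 and further single ratios given for context) were picked after their values were seen. Some genes that the rule names are not reported here. Alternatives changed the depth minimum, gate, comparison class, scaling, pseudocount, averaging, filter, fold and cells included.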

Additional observations from a re-analysis of the deposited data

Results flagged for a closer look

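Of the named genes, 3 were past the fold in both tissues with opposite signs, counted over all cells of a tissue. Lilrb4 had a log2 ratio of cycling over non-cycling cells of 1.06 in spleen and -1.01 in small intestine, Il18r1 of 1.78 and -2.07, and Triap1 of -1.70 and 1.06. Single cells of both classes overlapped in each case, and the difference between tissues was not tested. The row of the eGFP reporter, a transgene outside the mouse genes, held a read in 63.9% of cycling and 57.9% of non-cycling spleen cells (intervals 56.0% to 71.2% and 49.2% to 66.2%).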

How the results depend on the processing

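The 703 genes higher in cycling spleen cells became 2468 with the mean of log2(CPM + 1) per cell, 1055 without a filter on mean CPM and 1129 at a fold of 1.5. The 330 genes lower in cycling spleen cells became 147 with a pseudocount of 10 CPM, 29 with the mean of log2 values per cell, 935 at a fold of 1.5, and 536 and 540 without p1 columns 1 to 12 and without p1 columns 13 to 24. Without a set, its sign was no longer required. The median cytokine ratio of -0.19 was -0.30 with at least 20 gate reads, -0.11 with DESeq2 size factors, 0.23 with the mean of log2 values, -0.28 without cells with a Foxp3 read and -0.45 without G1-called cycling cells. Cytotoxic genes stood at 0.51 without cells with a Foxp3 read. With the mean of log2 values, co-inhibitory receptors stood at 0.57, naive and central memory genes at -0.10 and interferon genes at -0.15, and relative to the median of all genes at -0.04, -0.70 and -0.76. That setting also turned the medians of the quiescence, costimulatory, cytokine receptor, trafficking, transcription factor, survival and immediate early lists above 0. Without p1 columns 13 to 24 the co-inhibitory and chemokine medians were -0.14 and -0.47. Il1r2 turned to -0.32 with all other cells as the comparison. The cause of these moves was not tested. Over 17 settings (21 for counts), 321 values of list medians stayed within their limits and 87 moved. For named genes 2380 values stayed, 286 moved and 2 changed sign in genes that were called. For counts and shares 40 stayed and 8 moved. The limit for list medians and named genes was the standard deviation of the spleen set values. For counts it was a factor of 1.5, and for the share of cycling cells its interval. TMM and DESeq2 scaling shifted all ratios by 0.07 and 0.08. No paired analysis was possible because no label pairs cells across classes. Depth limits genes with few reads, and single libraries of 1 cell give no spread between animals.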
